A study of Mus musculus with 8 samples.

Results

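TEC is a class of gene models in the Ensembl and GENCODE mouse annotation, for loci that show signs of transcription and still await experimental proof of a gene. The TEC transcripts were taken as all rows of the deposited transcript tables that carry this class, whatever their level. They numbered 2639 of 117667 listed transcripts, or 2.24%, and belonged to 2603 of 48440 genes. RNA of mouse oocytes and of pluripotent cells in culture was measured in 8 libraries, 2 for each of 4 groups, as stranded paired-end libraries of total RNA. MII oocytes are held at metaphase of the second meiotic division. GV oocytes still have an intact germinal vesicle. Both oocyte groups are labelled as coming from mice given 5 units of PMSG 48 h ahead of a further, unnamed injection. The labels of both groups, MII included, describe collection of GV oocytes with 2 µM milrinone, which keeps meiosis from resuming, and give no maturation step. EpiC are in vitro epiblast cells made from ESC grown in the same 15% FBS medium, by plating for 24 h and then withdrawing LIF and the inhibitors for about 56 h. ESC are embryonic stem cells kept in medium of 15% FBS plus LIF, PD0325901 and CHIR99021, the last 2 being kinase inhibitors. No strain, genotype or animal number was given, and nothing says that the 2 libraries of a group came from separate animals or cultures, so a p measures only the spread between these libraries.

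Most TEC models are unspliced and have no assigned function. Many lie inside introns of known genes or downstream of them, where RNA can come from unprocessed transcripts or from read-through of the neighbour. Others hold repeated sequence that occurs at many places in the genome, and growing mouse oocytes are known for abundant RNA from retrotransposon sequence, mainly long terminal repeats of the MT class. A read from such a sequence can match many annotated transcripts, and quantification then divides it among them. No repeat annotation was used here, so none of the sequences described was assigned to a repeat class.

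Of the 2639 transcripts, 2593 were placed on GRCm38, the assembly that mm10 also names, with GENCODE release M21. A single exon made up 2533 of them. Lengths ran from 43 to 74456 bases with a median of 1901. A gene of another class overlapped 1362 (52.5%) on the same strand, and in 1307 of those the overlap was in introns only. Another 160 started within 5 kb downstream of such a gene, 396 overlapped a gene on the opposite strand, and 675 did none of these. The sequence of a typical TEC transcript was nearly unique, with a median of 0.830% of its 31-base words also present in transcripts of other genes. In 163 transcripts (6.29%) at least 50% of the words were shared.

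Total estimated counts per library were between 47463546 and 196788239, and replicate 2 was the deeper library in every group. The oocyte label was checked with 18 oocyte genes, which summed to between 26972 and 39981 TPM in the oocyte libraries and to between 20.4 and 207 TPM in the pluripotent ones. The cumulus and granulosa list of 14 genes summed to between 68.2 and 184 TPM in oocytes and between 18.5 and 58.2 TPM in pluripotent cells. The feeder fibroblast list of 9 genes summed to between 3.68 and 8.96 TPM in oocytes and between 94.4 and 236 TPM in pluripotent cells. Only 3 of the 9 had a mean of 1 TPM or more in ESC, 5 in EpiC, 3 in GV and 2 in MII oocytes. Sums over few expressed genes do not show that cumulus, granulosa or feeder cells were present. The part of such cells in the values below was not tested.

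One group of TEC sequences held most of the TEC signal in GV oocytes. Matching all placed TEC transcripts to each other put 17 of them in a family with Gm44087, a single-exon TEC on chromosome 6. Of these, 14 run in the orientation of Gm44087 and 3, Gm44792, Gm38110 and Gm38383, are annotated on the opposite strand of the sequence. Identity to Gm44087 over the aligned part was between 92.7% and 97.4%. The following stretches of 80 bases, taken from GENCODE M21 transcripts, show how close the copies are; capitals mark the bases that differ from Gm44087.
Gm44087, chr6:146376617-146376696, plus strand: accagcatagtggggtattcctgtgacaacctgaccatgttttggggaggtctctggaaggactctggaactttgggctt
Gm42887, chr5:69504697-69504776, minus strand: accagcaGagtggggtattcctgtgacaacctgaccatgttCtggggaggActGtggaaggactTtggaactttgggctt
Gm36976, chr3:43547375-43547454, plus strand: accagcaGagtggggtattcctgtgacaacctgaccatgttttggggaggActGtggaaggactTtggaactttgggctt
Gm37110, chr1:32485515-32485594, plus strand: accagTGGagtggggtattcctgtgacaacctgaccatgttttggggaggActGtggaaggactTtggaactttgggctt
Gm36958, chr9:102766229-102766308, minus strand: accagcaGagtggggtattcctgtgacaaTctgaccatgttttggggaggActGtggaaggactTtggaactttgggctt
RP23-453P1.1, chr8:104152907-104152986, plus strand: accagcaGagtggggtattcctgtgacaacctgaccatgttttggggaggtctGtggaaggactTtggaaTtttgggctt

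In this window the other 5 copies differed from Gm44087 at between 4 and 6 of 80 bases. Gm37110 on chromosome 1 and Gm44183 on chromosome 2 have the same sequence over all 1628 bases and the same value in every library, so these 2 loci cannot be told apart. Some copies hold AATAAA or ATTAAA, hexamers that can direct cleavage and polyadenylation, near their annotated 3′ end. The last 60 bases are shown for 3 such copies and for Gm44400, a TEC transcript of unique sequence, with the hexamer in capitals.
Gm44087, chr6:146378127-146378186, plus strand: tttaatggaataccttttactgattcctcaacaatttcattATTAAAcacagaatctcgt
Gm37110, chr1:32486883-32486942, plus strand: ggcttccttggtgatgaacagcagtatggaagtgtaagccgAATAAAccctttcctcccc
RP23-453P1.1, chr8:104154278-104154337, plus strand: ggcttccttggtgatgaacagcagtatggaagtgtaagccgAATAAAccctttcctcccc
Gm44400, chr6:50910676-50910735, plus strand: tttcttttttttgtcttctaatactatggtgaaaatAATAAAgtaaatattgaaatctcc

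AATAAA or ATTAAA, searched on the transcript's own strand only, was present in the last 50 bases of 6 of the 14 copies in the orientation of Gm44087 and of none of the 3 reverse copies. The same search found one of them in 28.5% of the 2593 placed TEC transcripts, in 50.9% of protein-coding transcripts and in 33.5% of the 110760 listed transcripts whose sequence was available. A match is a description of the letters and not evidence of cleavage.

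TEC transcripts were abundant in GV oocytes as a sum, and this sum came from the family. All TEC transcripts together had 2761 and 3812 TPM in MII oocytes, 65549 and 60419.8 TPM in GV oocytes, 8799.6 and 14076 TPM in EpiC, and 5784 and 9604 TPM in ESC. As a share of all TPM this was 6.55% and 6.04% in the GV libraries and at most 1.41% in any other library. The 17 transcripts of the family had 1029.9 and 1938 TPM in MII oocytes, 62411 and 57985 TPM in GV oocytes, 102 and 247 TPM in EpiC, and 111 and 221 TPM in ESC. They therefore held 95.2% and 96.0% of the TEC sum in GV oocytes, 37.3% and 50.8% in MII oocytes, and between 1.16% and 2.31% in the pluripotent libraries.

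The other 2622 TEC transcripts were lower in oocytes than in pluripotent cells as a sum. They summed to 1731 and 1875 TPM in MII oocytes, 3138 and 2435 TPM in GV oocytes, 8698 and 13829 TPM in EpiC, and 5673 and 9383 TPM in ESC. Every oocyte library lay below every pluripotent library. The mean over libraries in GV oocytes was 8.19 times that of ESC for all TEC transcripts and 0.370 times that of ESC outside the family. With 2 libraries a group the smallest two-sided p of an exact permutation test is 0.333, so these sums were given no test. In bulk samples, fewer cells of a type and less RNA per cell cannot be told apart, and TPM is a share of each library and not an amount per cell.

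**Figure D1:**
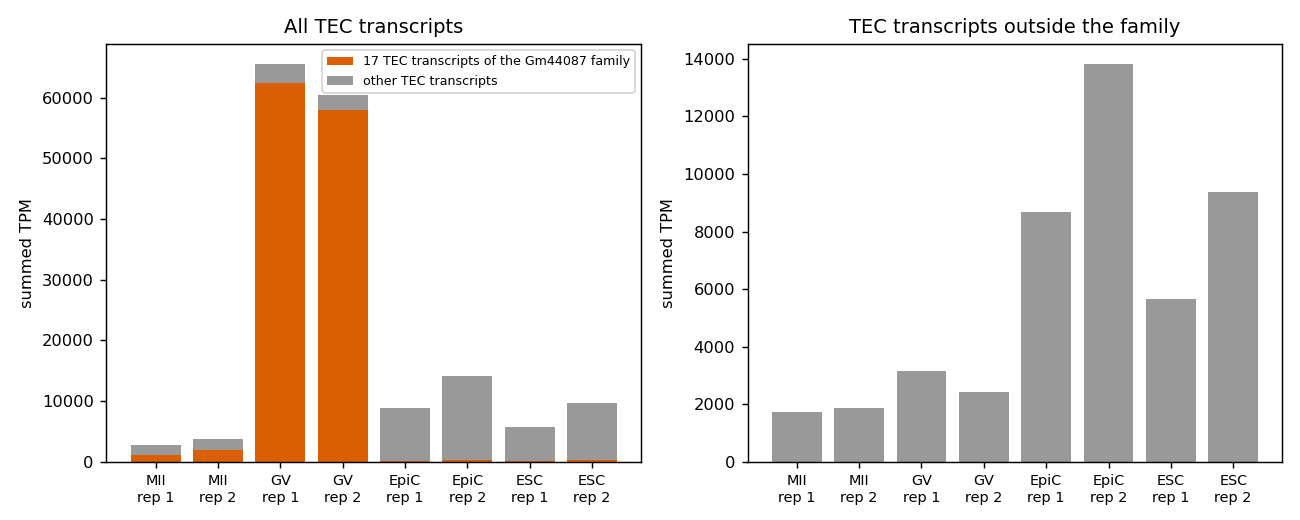
Summed TPM of TEC transcripts in each of the 8 libraries (MII, GV, EpiC and ESC, 2 replicates each); the left panel stacks the 17 transcripts of the Gm44087 family and the other 2622, and the right panel shows those 2622 alone on their own scale. The GV bars reach 65549 and 60419.8 TPM and are almost all family; outside the family, EpiC and ESC are above both oocyte groups.

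The number of TEC transcripts detected did not follow the sum. At 1 TPM or more there were 63 and 69 in MII oocytes, 122 and 102 in GV oocytes, 166 and 354 in EpiC, and 166 and 372 in ESC. In EpiC and ESC the second replicate had over 2 times as many as the first. Gm42418, a gene model that took a varying share of the libraries, was also higher in those second replicates. It held 22.7% of estimated counts in EpiC replicate 2 and 14.7% in ESC replicate 2, against 0.0255% and 0.0306% in their first replicates. In GV oocytes it held 0.0220% and 1.66%, while fewer TEC transcripts were detected in replicate 2. In MII oocytes it held 0.151% and 3.03%. Replicate 2 was also the deeper library in every group. The part of Gm42418 or of depth in the number detected was not tested. Over all libraries 467 TEC transcripts reached 1 TPM at least once, 30 did so in every library, and 334 had no count anywhere.

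Within the family the level of the copies differed by several orders of magnitude in GV oocytes. Gm42887 was the highest TEC transcript of the series, with 219 and 431 TPM in MII oocytes, 12657 and 11577 TPM in GV oocytes, 19.6 and 51.5 TPM in EpiC, and 16.6 and 29.1 TPM in ESC. Gm36976 had 141 and 266 TPM in MII oocytes, 8332 and 8253 TPM in GV oocytes, 13.4 and 22.7 TPM in EpiC, and 16.9 and 25.4 TPM in ESC. Gm37110, like its identical copy Gm44183, had 68.5 and 184 TPM in MII oocytes, 7653 and 7319.7 TPM in GV oocytes, 8.25 and 20.6 TPM in EpiC, and 9.08 and 18.8 TPM in ESC. In all 3, GV libraries were far above the rest, MII libraries were next, and EpiC overlapped ESC. Gm36958, RP23-453P1.1, Gm42553, RP23-61O10.1, RP23-89F9.7 and Gm44087 followed with between 1931 and 7189 TPM in GV oocytes. Gm43694, Gm42847 and Gm38070 had between 129 and 969.6 TPM there, and Gm18310 had 1.25 and 0.873 TPM.

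A difference between copies need not be one between loci. Gm42887 and Gm43694 are 99.9% identical, yet Gm43694 had only 969.6 and 917 TPM in GV oocytes, and 100% and 97.2% of their 31-base words occur in other genes. How reads of such copies were divided was decided by few bases, and the error of that division is not in the tables.

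Every copy was higher in GV oocytes than in ESC by edgeR's quasi-likelihood test over all 25067 features, adjusted by Benjamini and Hochberg, where 28.3% of features were called higher. Reads of shared sequence can be divided among the copies, and Gm37110 and Gm44183 have the same values. Neither here nor in the comparisons below are the calls on the 17 independent results. The log2 fold changes of the 17 ran from 2.53 to 9.94 with a median of 8.74, against −0.51 for all features. The largest was that of RP23-453P1.1, with 4915 and 4234 TPM in GV oocytes, against 3.68 and 7.75 TPM in ESC, and a log2 change of 9.94 ± 0.76 (SE, edgeR adjusted p = 1.64e-05). Gm42887 had 9.36 ± 0.87 (SE, edgeR adjusted p = 3.81e-05). The 2 smallest were reverse copies: Gm38110 had 34.6 and 62.1 TPM in GV oocytes, against 4.35 and 16.4 TPM in ESC, and 2.53 ± 0.88 (SE, edgeR adjusted p = 0.0330). Gm38383 had 9.67 and 16.9 TPM in GV oocytes, against 1.01 and 3.56 TPM in ESC, and 2.84 ± 0.91 (SE, edgeR adjusted p = 0.0230). The calls on these 2 copies were lost without GV replicate 2 (adjusted p of 0.149 for Gm38110 and 0.109 for Gm38383, edgeR) and without ESC replicate 1 (0.129 and 0.0993).

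All 17 were also lower in MII than in GV oocytes, where 22.2% of all features were called lower. Their log2 fold changes lay between −4.70 and −3.05 with a median of −4.23, against −0.53 for all features. This fit rescales the libraries by the bulk of the genes, and in plain TPM the family mean in GV oocytes was 40.6 times that in MII oocytes. The steepest change was that of Gm37110 and Gm44183, with −4.70 ± 0.77 (SE, edgeR adjusted p = 0.00134). RP23-453P1.1 changed least, with 218 and 274 TPM in MII oocytes, against 4915 and 4234 TPM in GV oocytes, and −3.05 ± 0.56 (SE, edgeR adjusted p = 0.00234). Gm38110 lost this call without GV replicate 2 (adjusted p = 0.0614, edgeR) or MII replicate 1 (0.0773), and Gm38383 without GV replicate 2 (0.0986), MII replicate 1 (0.103) or MII replicate 2 (0.0746).

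What remained in MII oocytes was still above the pluripotent cells for most copies. Against EpiC, where 28.5% of all features were called higher, 13 of the 17 were higher in MII oocytes. Gm43694 had the highest change, with 13.9 and 21.1 TPM in MII oocytes, against 0 and 0.508 TPM in EpiC, and a log2 change of 7.23 ± 1.03 (SE, edgeR adjusted p = 0.000263). Gm18310 and the 3 reverse copies did not pass. Between EpiC and ESC none of the 17 passed in edgeR's quasi-likelihood test, and 1 had an unadjusted p under 0.05. DESeq2 and limma fits are summarised with the other alternatives.

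**Figure D2:**
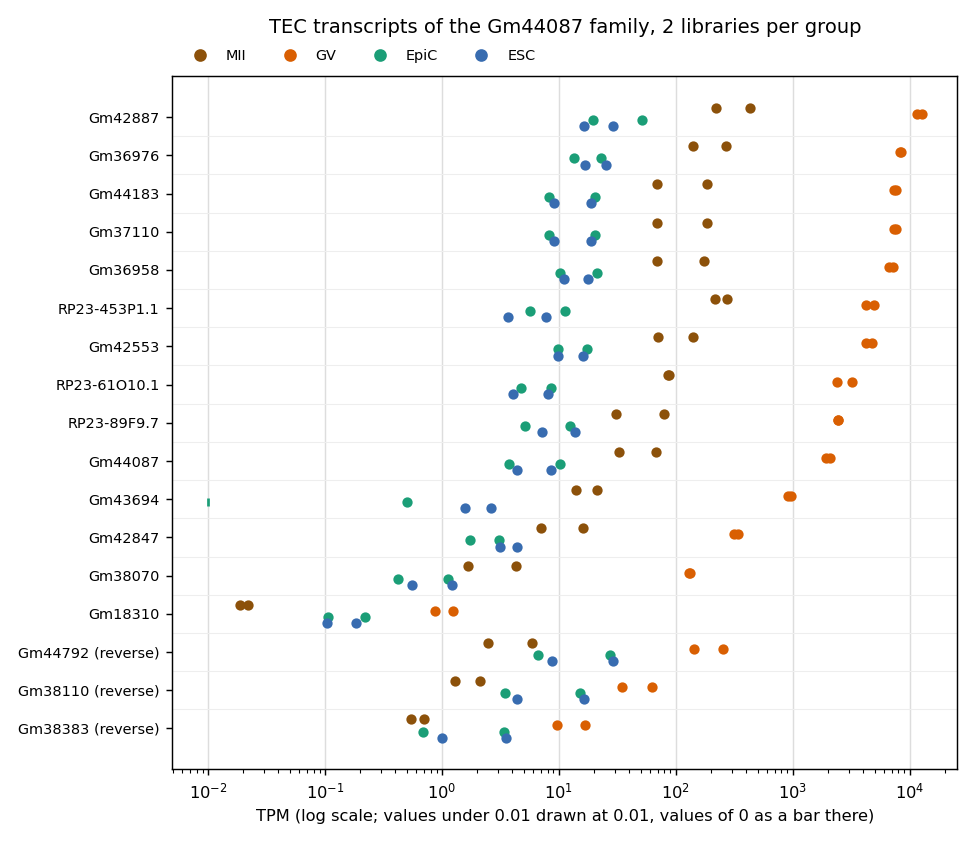
TPM of the 17 transcripts of the Gm44087 family on a log axis, 1 row per transcript and 1 point per library, coloured by group (MII, GV, EpiC, ESC). For each of the 17, both GV points lie right of all other points; for the 3 reverse copies and Gm18310 the MII points lie left of most EpiC and ESC points.

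Copies on the 2 strands of the sequence were far apart in oocytes and closer in pluripotent cells. The 14 copies in the orientation of Gm44087 summed to 1026 and 1929 TPM in MII oocytes, 62223 and 57652 TPM in GV oocytes, 91.2 and 201 TPM in EpiC, and 97.1 and 173 TPM in ESC. The 3 reverse copies summed to 4.35 and 8.78 TPM in MII oocytes, 188 and 333 TPM in GV oocytes, 10.8 and 45.9 TPM in EpiC, and 14.2 and 48.9 TPM in ESC. Gm44792 is the clearest case, because it is 99.9% identical to the reverse complement of Gm37110. Its TPM was 3.65% and 3.22% of that of Gm37110 in MII oocytes, 1.88% and 3.47% in GV oocytes, 80.6% and 132% in EpiC, and 97.0% and 154% in ESC. The ranges of the oocyte and pluripotent libraries did not overlap. Gm44183 has the same sequence and TPM as Gm37110, so each percentage is lower when both copies are counted. The sum of the 3 reverse copies was between 0.302% and 0.578% of that of the 14 in oocyte libraries. In pluripotent libraries it was between 11.8% and 28.3%. The libraries were stranded per the labels, but no source used here says whether the quantification took account of strand.

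The family members lie in varied surroundings. Gm37110 lies in the RNA-binding protein gene Khdrbs2, Gm38070 in the interleukin receptor gene Il1r1, Gm38110 in the engulfment adaptor gene Gulp1, Gm43694 in the kinase gene Yes1 and Gm44792 in the tight junction gene Tjp1, each on the strand of that gene. Gm44183 lies opposite the kinase gene Nek6, Gm44087 opposite the calcium channel gene Itpr2 and RP23-89F9.7 opposite the proton pump subunit gene Atp4b. Of the 5 members of highest mean TPM in GV oocytes, Gm42887, Gm36976 and Gm36958 overlap no annotated gene of another class. The hosts gave no common pattern. Khdrbs2 had 18.3 and 14.6 TPM in GV oocytes, against 0.129 and 1.12 TPM in ESC, a log2 change of 2.83 (adjusted p = 0.00499, edgeR), higher like Gm37110 inside it, and did not pass between MII and GV oocytes (adjusted p = 0.173, edgeR). Yes1 had 58.7 and 33.8 TPM in MII oocytes, against 8.82 and 4.52 TPM in GV oocytes, a log2 change of 3.93 (adjusted p = 0.000809, edgeR), while Gm43694 inside it had −4.58 ± 0.89 (SE, edgeR adjusted p = 0.00304).

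The same sequence was also found in transcripts of other classes. With at least 300 bases at 85% identity or more, 140 further listed transcripts carried it. In the orientation of Gm44087 there were 17 more TEC transcripts and 47 of other classes, and in reverse 5 TEC transcripts and 71 of other classes. The 47 summed to 199.8 and 306 TPM in MII oocytes, 7440.1 and 6484 TPM in GV oocytes, 216 and 244 TPM in EpiC, and 447 and 495 TPM in ESC. The 71 summed to 10.2 and 14.1 TPM in MII oocytes, 149.6 and 239.9 TPM in GV oocytes, 165 and 209 TPM in EpiC, and 174 and 249 TPM in ESC. The 3 highest carriers of other classes in GV oocytes, named after their values were seen, were the long noncoding RNAs Gm43042, Gm16211 and Gm38025. Gm43042 had 2723 and 2454 TPM in GV oocytes, against 5.35 and 9.20 TPM in ESC, a log2 change of 8.78 ± 0.76 (SE, edgeR adjusted p = 2.69e-05). Gm16211 had 2066 and 1801 TPM in GV oocytes, against 57.1 and 117 TPM in ESC, and 4.77 ± 0.73 (SE, edgeR adjusted p = 0.000577). It did not pass in MII oocytes against EpiC (edgeR adjusted p = 0.0540). Gm38025 had 1356 and 1093 TPM in GV oocytes, against 0.381 and 0.970 TPM in ESC, and 11.08 ± 0.91 (SE, edgeR adjusted p = 2.06e-05). As a sum, transcripts of other classes in the orientation of Gm44087 were therefore also listed higher in GV oocytes. Reads of near-identical sequence can be divided among them and the TEC copies, so their values are not independent of those of the family.

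Across TEC features, more passed as lower than as higher in GV oocytes against ESC, and most of those tested did not pass. The fit tested 1388 of the 2603 TEC features, a feature being the TEC transcripts of a gene, and 1215 had counts too low to be tested. A feature that was tested only because of the group where it is high had to differ, so the counts that follow describe the tested features and not all TEC genes. Of the 1388, 81 were higher in GV oocytes than in ESC (5.84%) and 520 lower (37.5%), against 28.3% higher and 31.3% lower of all 25067 features. Without the family 64 were higher and the same 520 lower. The median log2 fold change of the 1388 was −3.19, against −0.51 for all features, but in limma on log2(TPM + 1) the medians were −0.38 over 963 TEC features and −0.26 over all. Of 1565 long intergenic noncoding RNAs in the same edgeR fit, 581 (37.1%) were higher and 353 (22.6%) lower. Processed pseudogenes lay nearer to TEC, with 221 (13.0%) higher and 585 (34.5%) lower of 1698. Their median log2 fold change was −2.25.

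Most of these TEC features had low levels. The 520 had a median of 0.0142 TPM in GV oocytes, against 0.552 TPM in ESC, and 48 of them had a mean of 5 TPM or more in ESC. The 64 had a median of 1.35 TPM in GV oocytes, against 0.0360 TPM in ESC. The number of lower features rested on single libraries: it was 135 without GV replicate 2, 211 without GV replicate 1 and 186 without ESC replicate 2. Without ESC replicate 2 the median TEC log2 fold change was −1.10, against 0.00 for all features. A fit of each transcript as its own feature called 148 lower, and limma on log2(TPM + 1) called 231.

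In MII oocytes against EpiC there were 87 TEC features higher (6.27%) and 561 lower (40.4%), against 28.5% higher and 39.6% lower of all features. The share lower was thus near that of all features. The median TEC log2 fold change was −3.83, against −1.23 for all features and −3.92 for processed pseudogenes. In limma the medians lay closer, with −0.42 for TEC and −0.53 for all features on log2(TPM + 1), and −1.75 and −1.62 on log2(TPM + 0.1). The 561 fell to 180 without MII replicate 2, to 261 without MII replicate 1 and to 230 without EpiC replicate 2. Lower in both comparisons were 391 of the 1388 TEC features (28.2%), against 23.8% of all features, and higher in both were 57 (4.11%), against 19.8% of all features. The 2 comparisons share no library but were fitted together.

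Few TEC features were called between MII and GV oocytes. There, 35 of 1388 were higher (2.52%) and 75 lower (5.40%), against 17.4% higher and 22.2% lower of all features. Of the 75, 17 were the family. The remaining 1278 were not called, which does not show that they were unchanged. The median TEC log2 fold change of −0.53 was that of all features. The split differed between settings: relative log expression gave 53 higher and 78 lower, and with limma on log2(TPM + 0.1) 12 were higher and 119 lower. The 35 fell to 9 without GV replicate 2, 11 without GV replicate 1, 13 without MII replicate 1 and 18 without MII replicate 2, and the 75 fell to 55 without GV replicate 2, 41 without GV replicate 1, 36 without MII replicate 1 and 47 without MII replicate 2.

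**Figure D3:**
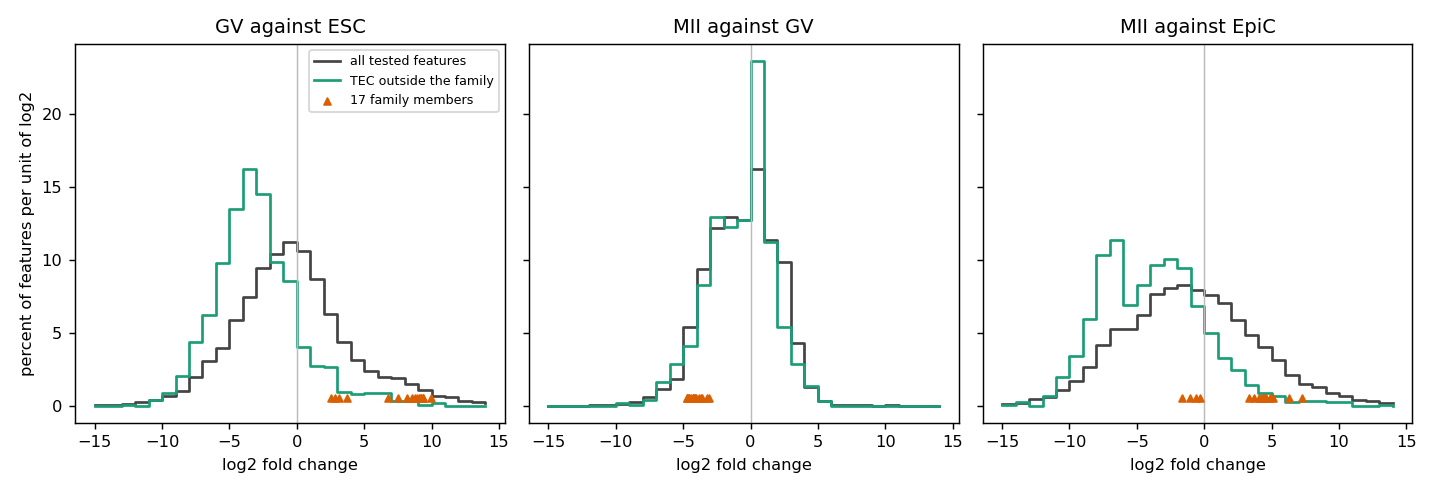
Distribution of log2 fold changes, as percent of features per unit of log2, for all tested features (grey line) and TEC features outside the Gm44087 family (green line), with the 17 family members as triangles near the base; panels are GV against ESC, MII against GV and MII against EpiC. The TEC line lies to the left of that of all features in the comparisons with pluripotent cells (medians of −3.22 and −3.91, against −0.51 and −1.23), and close to it for MII against GV (−0.48, against −0.53).

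A small set of TEC transcripts with nearly unique sequence was found mainly in oocytes. Gm44400 on chromosome 6, whose 3′ end is printed above, shares none of its 31-base words with another gene. It had 41.7 and 37.6 TPM in MII oocytes, 86.0 and 76.0 TPM in GV oocytes, 0 and 0.0133 TPM in EpiC, and 0.0345 and 0.0686 TPM in ESC. The log2 fold change was 10.67 ± 0.60 in GV oocytes against ESC (SE, edgeR adjusted p = 6.36e-06) and 13.08 ± 0.70 in MII oocytes against EpiC (SE, edgeR adjusted p = 3.99e-06). Between MII and GV oocytes no direction held: edgeR gave 0.13 ± 0.37 (SE, adjusted p = 0.827), and limma on log2(TPM + 1) gave −1.01 (adjusted p = 0.00686).

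Gm37015 lies in the potassium channel gene Kcng2 on its strand and also shares no word with another gene. It had 7.69 and 5.99 TPM in MII oocytes, 26.1 and 18.2 TPM in GV oocytes, 0 and 0.0713 TPM in EpiC, and 0 and 0.0292 TPM in ESC. Its log2 fold change was 10.24 ± 1.09 in GV oocytes against ESC (SE, edgeR adjusted p = 7.87e-05). Kcng2 itself was at 0.167 TPM or less in every oocyte library, so the TEC transcript stood above the gene around it by more than the spread between libraries.

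Some TEC transcripts were higher in MII than in GV oocytes. 5930409G06Rik had 13.9 and 6.98 TPM in MII oocytes, against 3.08 and 1.40 TPM in GV oocytes, a log2 change of 3.38 ± 0.58 (SE, edgeR adjusted p = 0.00168). Gm38273 lies in the antisense gene Gm10848 on its strand and opposite the calcium channel subunit gene Cacnb2. Gm38273 had 11.9 and 7.21 TPM in MII oocytes, against 2.15 and 0.620 TPM in GV oocytes, and 3.97 ± 0.99 (SE, edgeR adjusted p = 0.0110). 5930409G06Rik and Gm38273 were at most 0.0520 TPM in each of the 4 pluripotent libraries. Without GV replicate 2 or MII replicate 1 the adjusted p of Gm38273 was 0.0737 or 0.0600 (edgeR).

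Gm37254 lies in Gpatch2, a gene of a protein with a G-patch domain, on its strand. It had 7.02 and 4.95 TPM in MII oocytes, against 1.09 and 0.601 TPM in GV oocytes, and a log2 change of 3.99 ± 0.48 (SE, edgeR adjusted p = 0.000548). Gpatch2 had 36.0 and 29.9 TPM in MII oocytes, against 10.9 and 10.4 TPM in GV oocytes, and 2.36 (adjusted p = 0.000735, edgeR). Here the TEC transcript and its host were both higher. Gm44044, in the Polycomb partner gene Rybp, had 10.9 and 8.91 TPM in MII oocytes, against 6.45 and 4.52 TPM in GV oocytes, and 2.01 ± 0.47 (SE, edgeR adjusted p = 0.00759). Rybp had 126 and 203 TPM in MII oocytes, against 457 and 649 TPM in GV oocytes, and did not pass (adjusted p = 0.326, edgeR). The fit scales libraries by factors of 0.42 and 0.40 in MII oocytes and 1.07 and 1.15 in GV oocytes. Its log2 changes between these groups therefore lie above those of plain TPM. Gm44044 did not pass in limma on log2(TPM + 1) (adjusted p = 0.0554) or, in edgeR, without GV replicate 2 (0.0541).

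The TEC transcripts most abundant in pluripotent cells were short or of shared sequence. They are shown whole, because their length bears on their TPM; capitals mark AATAAA where present.
Gm37750, chr9:104053327-104053455, plus strand: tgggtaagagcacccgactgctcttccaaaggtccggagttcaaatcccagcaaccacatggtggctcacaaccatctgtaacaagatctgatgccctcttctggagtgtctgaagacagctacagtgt
Gm43558, chr3:134357292-134357501, plus strand: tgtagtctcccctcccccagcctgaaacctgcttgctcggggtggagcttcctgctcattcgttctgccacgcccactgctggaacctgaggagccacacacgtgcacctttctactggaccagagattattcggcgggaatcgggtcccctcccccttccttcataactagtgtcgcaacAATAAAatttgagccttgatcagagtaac
Gm43078, chr3:35413833-35414000, plus strand: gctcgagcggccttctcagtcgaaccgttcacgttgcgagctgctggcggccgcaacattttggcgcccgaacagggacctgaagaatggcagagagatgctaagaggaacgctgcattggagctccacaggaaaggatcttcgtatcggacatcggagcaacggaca

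The quantification divides counts by an effective length, the number of places a fragment can start, which for Gm37750 with its 129 bases was between 20.3 and 24.1. A TPM of such a transcript rests on few counts per unit: 1360.4 TPM in GV replicate 1 came from 1592 estimated counts. The 44 TEC transcripts under 200 bases held 51.0% and 39.0% of the TEC sum in MII oocytes, 2.23% and 2.15% in GV oocytes, 30.1% and 21.2% in EpiC, and 29.9% and 26.6% in ESC.

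Gm37750 was abundant in all 4 groups, with 1394 and 1474 TPM in MII oocytes, 1360.4 and 1251 TPM in GV oocytes, 925 and 1185 TPM in EpiC, and 645 and 1004 TPM in ESC. It was the highest TEC transcript in both MII libraries. All of its 31-base words occur in other genes. Both MII libraries lay above the 4 pluripotent ones, and it was higher in MII oocytes than in EpiC by a log2 change of 1.95 ± 0.43 (SE, edgeR adjusted p = 0.0034), a call lost in limma on log2(TPM + 1) (adjusted p = 0.260). Its call as higher in MII than in GV oocytes, a log2 change of 1.32 ± 0.43 (SE, edgeR adjusted p = 0.0347), was lost without any 1 of the 4 oocyte libraries, with adjusted p-values between 0.0826 and 0.154, and was 0.14 in limma on log2(TPM + 1) (adjusted p = 0.920).

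Gm43558 was the highest TEC transcript of EpiC and ESC, with 8.05 and 15.4 TPM in MII oocytes, 69.5 and 56.2 TPM in GV oocytes, 2576 and 3474 TPM in EpiC, and 1605 and 2389.6 TPM in ESC. It fell by 4.64 ± 0.55 on the log2 scale in GV oocytes against ESC (SE, edgeR adjusted p = 0.000132). Gm43078 had 0 and 1.11 TPM in MII oocytes, 9.80 and 12.3 TPM in GV oocytes, 1457 and 1402 TPM in EpiC, and 857 and 1168 TPM in ESC, a log2 change of −6.14 ± 0.66 in GV oocytes against ESC (SE, edgeR adjusted p = 8.52e-05). Both groups of pluripotent libraries lay far above both groups of oocyte libraries.

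Sequence families differed in pattern, and those of the named transcripts are given here. Gm43078 and Gm43041 belong to a family of 5 that summed to 0.0956 and 1.25 TPM in MII oocytes, 10.9 and 12.9 TPM in GV oocytes, 1799 and 1636 TPM in EpiC, and 1080.4 and 1381 TPM in ESC. Gm43601 and Gm44660 belong to another family of 5 that summed to 1.03 and 1.17 TPM in MII oocytes, 13.9 and 3.59 TPM in GV oocytes, 1087 and 2914 TPM in EpiC, and 465 and 828 TPM in ESC. The family of 186 that holds Gm43558 and Gm37750 summed to 1455 and 1559 TPM in MII oocytes, 1891 and 1551 TPM in GV oocytes, 5112 and 7769 TPM in EpiC, and 3352 and 5748 TPM in ESC. Gm37750 alone had 1394 and 1474 TPM in MII oocytes and 1360.4 and 1251 TPM in GV oocytes, which is most of these oocyte sums. Families were joined by chains of matches, so their members need not all match each other. A family of 5 with Gm42429 and Gm43305 was highest in GV oocytes, with 7.79 and 11.9 TPM in MII oocytes, 129 and 94.8 TPM in GV oocytes, 41.8 and 54.3 TPM in EpiC, and 57.4 and 73.7 TPM in ESC. Gm43238 had 0 and 0.160 TPM in MII oocytes, against 869.9 and 1648 TPM in EpiC, a log2 change of −11.96 ± 1.29 (SE, edgeR adjusted p = 5.54e-05). Among transcripts of more unique sequence, Gm37324 had 0.0225 and 0.0218 TPM in GV oocytes, against 10.2 and 16.9 TPM in ESC, and −8.93 ± 0.77 (SE, edgeR adjusted p = 2.60e-05). Gm37795 had 0.0349 and 0.0198 TPM in GV oocytes, against 10.8 and 32.6 TPM in ESC, and −9.46 ± 1.19 (SE, edgeR adjusted p = 0.000192).

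**Figure D4:**
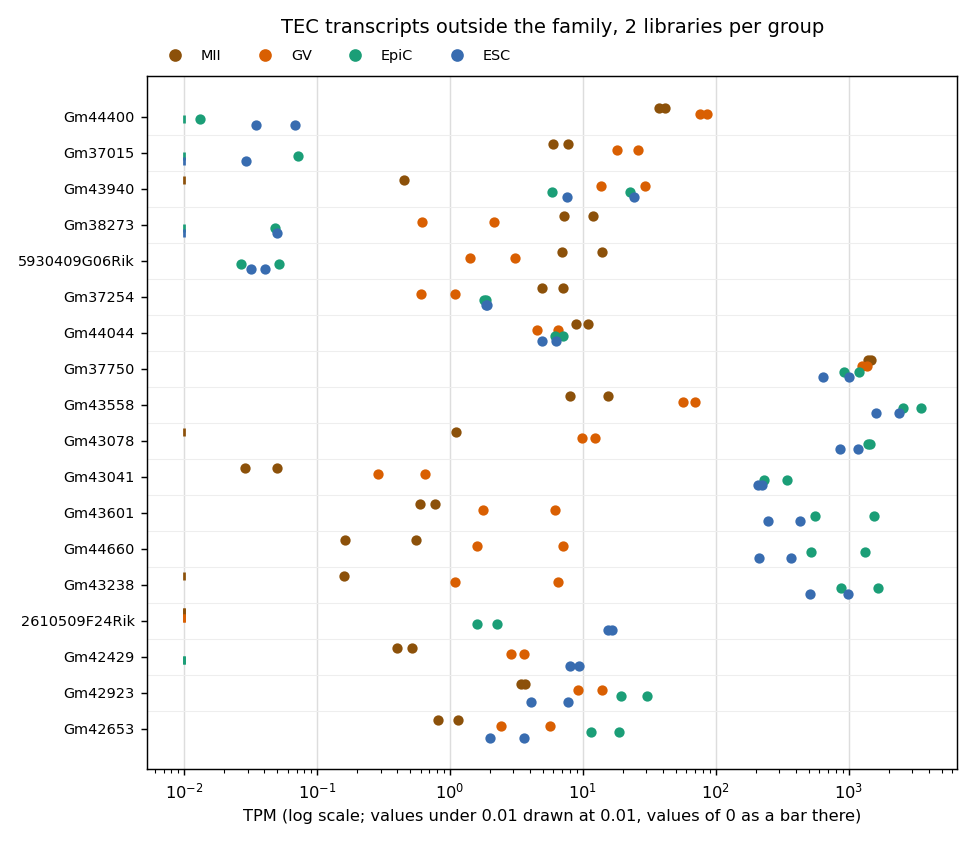
TPM of 18 TEC transcripts outside the Gm44087 family on a log axis, 1 row per transcript and 1 point per library, coloured by group (MII, GV, EpiC, ESC); a value of 0 is drawn as a short bar at the left edge. Gm44400 and Gm37015 have their points in oocytes at least 5.99 TPM and those in pluripotent cells at most 0.0713 TPM; Gm43558, Gm43078, Gm43041, Gm43601, Gm44660 and Gm43238 have their points in pluripotent cells above all their oocyte points, and Gm37750 is at 645 TPM or more in every library.

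Few TEC features were called between EpiC and ESC. Of the 1388 features 2 were higher (0.144%) and 3 lower (0.216%) in EpiC, against 2.62% higher and 2.82% lower of all features. In the same edgeR test 40 had an unadjusted p under 0.05. Gm42429 had 0 and 0 TPM in EpiC, against 8.01 and 9.41 TPM in ESC, at least 60.1-fold lower taking a floor of 3 counts per library (adjusted p = 0.00337, edgeR). All of its 31-base words occur in other genes. 2610509F24Rik, of unique sequence and downstream of the noncoding RNA gene Platr11, had 2.26 and 1.59 TPM in EpiC, against 15.4 and 16.5 TPM in ESC, a log2 change of −3.05 ± 0.65 (SE, edgeR adjusted p = 0.0420). Platr11 had 4.26 and 3.65 TPM in EpiC, against 39.7 and 31.9 TPM in ESC, and −3.14 (adjusted p = 0.0451, edgeR). Both were listed at 0 in all 4 oocyte libraries. The third, Gm42870, had 0.0267 and 0.0592 TPM in EpiC, against 1.14 and 1.32 TPM in ESC, and is named after its values were seen.

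Gm42923 had 30.2 and 19.4 TPM in EpiC, against 4.04 and 7.77 TPM in ESC, a log2 change of 2.05 ± 0.44 (SE, edgeR adjusted p = 0.0300). Gm42653 had 18.8 and 11.6 TPM in EpiC, against 1.99 and 3.61 TPM in ESC, and 2.42 ± 0.56 (SE, edgeR adjusted p = 0.0377). Neither call held without ESC replicate 1, without EpiC replicate 1 or without EpiC replicate 2. That of 2610509F24Rik was lost without any 1 of the 4 pluripotent libraries, with adjusted p-values between 0.133 and 0.153, while its log2 fold change stayed between −3.16 and −2.95. The numbers of 2 higher and 3 lower went to 0 and 1 without ESC replicate 1.

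The direction was counted for each position relative to other genes, and is to be read beside the 28.3% higher and 31.3% lower of all features. In GV oocytes against ESC, TEC features inside a gene on the same strand were higher in 22 (2.59%) and lower in 341 (40.2%) of 849. Those downstream of a gene were higher in 3 (3.23%) and lower in 33 (35.5%) of 93. Those that overlapped a gene only on the opposite strand were higher in 23 (14.7%) and lower in 45 (28.8%) of 156, and those with none of these relations were higher in 33 (12.3%) and lower in 91 (34.0%) of 268. No test of the difference between these classes was made. Family members are among them, with 5 in the first class and 8 in the last.

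Among tested features, TEC transcripts inside genes had a lower median change in GV oocytes against ESC than the genes around them. The count filter bears on this, because a TEC feature low in oocytes could be tested only through the pluripotent libraries. Of all 520 TEC features called lower in GV oocytes than in ESC, 107 were at 0 in GV oocytes. Of the 561 called lower in MII oocytes than in EpiC, 277 were at 0 in MII oocytes. For 822 TEC features with a tested host on the same strand, the correlation of log2 fold changes across features was 0.345 (Pearson) and 0.312 (Spearman) in GV oocytes against ESC; features share libraries and are not independent. The median TEC log2 fold change was −3.79, against 0.24 for the hosts. Both were called in 220 pairs: 110 were lower together, 14 were higher together, the TEC feature was lower and the host higher in 93, and the reverse held in 3. In MII oocytes against EpiC the correlation was 0.212 (Pearson) and 0.194 (Spearman), with 88 pairs lower together and 171 with a lower TEC feature in a higher host. The share of hosts called is not given, so these pair counts cannot be set against an expected number. For the same 822 features the correlation was 0.025 (Pearson) and 0.028 (Spearman) in MII against GV oocytes. In EpiC against ESC it was 0.429 (Pearson) and 0.452 (Spearman). Downstream TEC features had a correlation of 0.533 (Pearson) and 0.317 (Spearman) over 82 pairs in GV oocytes against ESC.

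**Figure D5:**
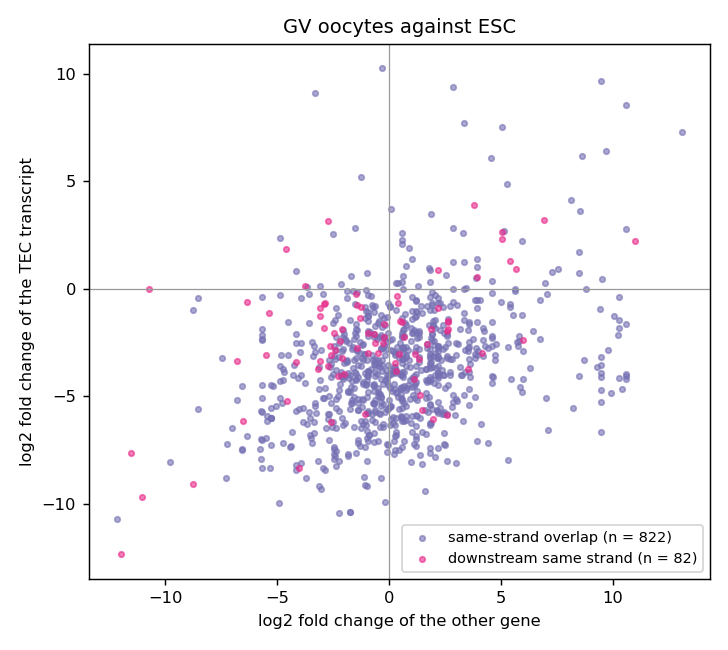
Log2 fold change in GV oocytes against ESC of each TEC feature (vertical axis) and of the gene of another class that holds it on the same strand (violet, n = 822) or ends within 5 kb upstream of it (pink, n = 82). Most points lie below the horizontal zero line on both sides of the vertical one, with medians of −3.79 for TEC features and 0.24 for the genes that hold them. Only features that passed the count filter are drawn, and many TEC features low in oocytes passed it through the pluripotent libraries.

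TEC transcripts inside genes were also more numerous in the second than in the first libraries of pluripotent cells. At 1 TPM or more there were 68 and 186 of them in EpiC and 66 and 210 in ESC, against 35 and 26 in GV oocytes. Their summed TPM was 1332 and 2494 in EpiC and 1105 and 2184 in ESC.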

How the data were processed

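Total RNA from 8 libraries had been quantified per transcript with kallisto 0.43, with mm10 as the named build, per the submitters' processing notes. The deposited tables give an estimated count and a TPM for each transcript. The authors' kallisto run splits reads shared by several transcripts and scales TPM by effective length, so values of near-identical and very short transcripts are uncertain. No source used here says whether strand was used. Depth differs between libraries, and a low TPM is less exact in the shallower one.

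Estimated counts were summed per gene, with the TEC transcripts of a gene kept apart from its other transcripts, and rounded. They were tested with edgeR 4.0.16 (filterByExpr, TMM scaling, quasi-likelihood, all 8 libraries, 4 residual degrees of freedom), with Benjamini-Hochberg adjustment over all 25067 features and a threshold of 0.05. Standard errors are approximate, from the fold change and the F statistic. The test was first run on simulated data. Alternatives used DESeq2 1.42.0 and limma 3.58.1 on log2 TPM with a pseudocount of 1 or 0.1. Scripts ran in R 4.3.3 and Python 3.11.15.

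Positions and sequences came from GENCODE M21 transcripts on GRCm38, matched by transcript identifier. Families were joined with blastn 2.17.0 at 80% identity or more over at least 50% of the shorter transcript and at least 100 bases. Printed sequences are transcript sequence, in place of the genome sequence first planned, and were chosen after values were seen. Shared sequence is the share of 31-base words found in transcripts of another gene.

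Named were the 8 TEC transcripts of highest mean TPM in each group, any holding over 5% of a library's TEC sum, for each comparison up to 6 called features of highest and 6 of lowest change with a mean of at least 5 TPM in the higher group, their neighbour genes, Gm42418 and the cell markers. Other family members and carriers were named after their values were seen. Members and lists were chosen with earlier results of these data known. Same-numbered libraries of MII and GV oocytes deviated together (correlation 0.456), as did those of EpiC and ESC (0.758). Between oocyte and pluripotent groups the correlations lay between 0.0335 and 0.144. No label says that same-numbered libraries belong together, so the main fit did not pair them. Any difference they share stays in its spread, which can lower the number of calls within oocytes and within pluripotent cells. The replicate block took a single replicate effect for all 4 groups.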

Additional observations from a re-analysis of the deposited data

Results flagged for a closer look

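The change between MII and GV oocytes and the change between EpiC and ESC were compared in a single term of the edgeR fit, the log2 fold change of EpiC against ESC minus that of MII against GV, adjusted over all features. Of the 1388 tested TEC features 45 had a higher (3.24%) and 16 a lower difference (1.15%), against 16.4% and 13.2% of all features. The median difference over all features was 0.68.

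In the Gm44087 family 14 of 17 members differed, and these are not independent results. Gm43694 (adjusted p = 0.267, edgeR), Gm38110 (0.0520) and Gm38383 (0.0821) did not pass. The difference was 4.78 for Gm42887 (adjusted p = 0.00486, edgeR), 4.01 for Gm36976 (0.00431), 4.84 for each of Gm37110 and Gm44183 (0.00644) and 4.84 for Gm36958 (0.0042). It was 3.68 for RP23-453P1.1 (0.00694), 4.37 for Gm42553 (0.00379), 4.04 for RP23-61O10.1 (0.00393), 4.12 for RP23-89F9.7 (0.00968) and 4.35 for Gm44087 (0.00774). It was 3.07 for Gm42847 (0.0135), 4.34 for the reverse copy Gm44792 (0.0244), 4.15 for Gm38070 (0.0114) and 4.78 for Gm18310 (0.0104).

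Transcripts that are high in pluripotent cells also differed. The value was 3.14 for Gm43078 (0.0289), 2.67 for Gm43041 (0.0140), 4.53 for Gm43238 (0.0399), 3.10 for Gm43601 (0.0431) and 4.10 for Gm44660 (0.0282). All of them were at most 1.11 TPM in MII oocytes, so these differences rest on values near the floor. For Gm43601 neither change passed alone in edgeR (adjusted p = 0.169 for MII against GV and 0.214 for EpiC against ESC).

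The value was negative for 5930409G06Rik, at −3.61 (0.0244), and for Gm37254, at −4.00 (0.00266), both higher in MII than in GV oocytes. The transcripts called between EpiC and ESC gave 2.58 for Gm42923 (0.0128), 3.29 for Gm42653 (0.0117) and −9.12 for Gm42429 (0.00334), the last from a fit against a group at 0, which depends on the prior count. Groups of 2 libraries are too small for a check of single outlying samples.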

How the results depend on the processing

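Of 1648 values of named transcripts under 18 alternative settings, 1584 kept their direction and side of the threshold, 60 lost their call and 4 turned in sign. The 4 were all Gm44400 in MII against GV oocytes, with −0.0824 with no count filter, −1.01 and −1.03 in limma on log2(TPM + 1) and log2(TPM + 0.1), and −0.0014 without MII replicate 1, the lowest of a leave-one-out range that reached 0.128; the cause was not tested. Numbers of called TEC features were less stable. In GV oocytes against ESC, 231 were lower in limma on log2(TPM + 1) and 148 with transcripts as features. In MII against GV oocytes, 53 were higher with relative log expression, 74 in DESeq2, 54 with the replicate block, 15 and 12 in limma (pseudocount 1 and 0.1), 74 with the compared groups only and 4 with transcripts as features; 136 were lower with no count filter, 119 in limma (0.1), 39 with transcripts as features and 43 among features with under 50% of 31-base words shared. In MII oocytes against EpiC, 52 and 54 were higher in limma (1 and 0.1), and 255 (limma, 1) and 278 (transcripts) were lower. In EpiC against ESC, 6 were higher in DESeq2, 8 with no filter, 4 in limma (1), 1 with the compared groups only, 0 with transcripts as features and 1 among features with little shared sequence; 5 were lower with relative log expression, 10 in DESeq2, 9 with no filter, 7 with the replicate block, 16 and 9 in limma (1 and 0.1) and 0 with transcripts. The difference of changes was higher in 96 with no filter, 71 and 77 in limma, 22 with transcripts and 22 with little shared sequence, and lower in 37 in DESeq2 and 2 with transcripts. With the replicate number as a block, 105 were higher and 616 lower in GV oocytes against ESC, and 95 and 684 in MII oocytes against EpiC; pairing was not established. Of the calls in MII against GV oocytes, 31.8% were higher, against 42.3% in DESeq2, 44.3% with the compared groups only, and 14.4% and 9.16% in limma; in GV oocytes against ESC it was 13.5%, against 26.4% in limma (1).

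Leaving out 1 library at a time gave 64 to 101 higher and 135 to 661 lower in GV oocytes against ESC, 9 to 49 and 36 to 95 in MII against GV oocytes, 66 to 101 and 180 to 732 in MII oocytes against EpiC, 0 to 2 and 1 to 5 in EpiC against ESC, and 22 to 59 and 5 to 23 for the difference of changes. The TEC sum then lay between 2761 and 3812 TPM in MII oocytes, 60419.8 and 65549 in GV oocytes, 8799.6 and 14076 in EpiC, and 5784 and 9604 in ESC, and the number at 1 TPM or more between 63 and 69, 102 and 122, 166 and 354, and 166 and 372 in the same order. Without the highest TEC transcript of each library the mean sum was 1853 TPM in MII and 50867 TPM in GV oocytes, with only transcripts with no same-strand neighbour 1541 and 52623 TPM, and outside the family 1802.7 and 2786.5 TPM. As a share of estimated counts TEC transcripts held 0.145% in MII oocytes, 5.48% in GV oocytes, 0.637% in EpiC and 0.404% in ESC, against 0.329%, 6.30%, 1.14% and 0.769% of TPM. At 0.1 TPM 263, 430.5, 1029 and 1004 were detected on average, and at 10 TPM 20, 42.5, 57 and 52.5. Downstream features were higher in 13 and lower in 55 within 10 kb, and in 0 and 13 within 1 kb. The numbers tested at these distances are not given, so the counts cannot be set beside the shares of all features. Low counts limit most TEC features outside the family.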
